A study of Homo sapiens with 6 samples.

Results

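The replication-dependent histone genes are described here in 5 chromatin immunoprecipitation (ChIP-seq) peak lists. All came from MDA-MB-231, a cell line derived from a human triple-negative breast cancer. Members were the protein-coding genes of GENCODE release 44 named as clustered H2A, H2B, H3 or H4 genes (H2AC, H2BC, H3C and H4C with a number) or as H1-1 to H1-6. This rule gave 69 of 19970 protein-coding genes on the autosomes and X, and used no measured value. They comprised 6 H1, 17 H2A, 18 H2B, 13 H3 and 15 H4 genes. Binding of the transcription factor E2F1 was mapped without treatment, after 72 h in DMSO, a solvent, and after 72 h in 1 µM GSK126. GSK126 inhibits EZH2, the methyltransferase that trimethylates histone H3 at lysine 27 (H3K27me3). This mark was mapped after knockdown of E2F1 with a short hairpin RNA (shE2F1) and after a control shRNA. Transduction lasted 24 h, and 2 µg/ml puromycin was then applied for 72 h. Each condition has 1 library, so no difference between conditions has a replicate check and no p-value is given. The lists hold no RNA or protein values, so neither the loss of E2F1 nor the identity of the cells could be checked from them.

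Replication-dependent histone genes supply the bulk of the histones that package new DNA, and they are transcribed mainly in S phase. Most lie in clusters, carry no introns, and end their mRNA not in a poly(A) tail but in a conserved stem-loop that the protein SLBP binds. Cyclin E and CDK2 act on NPAT, a coactivator found at the histone gene clusters, and the factor HINFP binds a site particular to H4 promoters. E2F1 drives genes needed to enter S phase, whereas H3K27me3 is a mark of genes held silent by Polycomb proteins.

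The sequence of the genes was checked against this description. The 16-base stem-loop was found downstream of the stop codon in 69 of the 69 members, against 0.456% of all protein-coding genes. The most frequent forms are shown because they identify the gene class, with the stem in capitals and the loop in lower case. The first was present in 40 members, none of them H4 genes, and the second in 10 members, all of them H4 genes.
main form: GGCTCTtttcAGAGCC
H4 form: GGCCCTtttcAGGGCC

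The members formed 6 groups when neighbours no more than 500 kb apart were joined. The main cluster on chromosome 6 (chr6:25723397-26285638, GRCh38) held 34 members. The second (chr6:27125897-27147562) held 5, and the third (chr6:27807479-27893891) held 16. On chromosome 1, 11 members lay at chr1:149782689-149887965 and 2 at chr1:228434777-228463104. H4C16 stood alone on chromosome 12. An H2A and an H2B gene stood head to head in 12 pairs, with 194 to 251 bp between their starts, so both genes of a pair can be assigned the same peak. Joining genes with starts within 1000 bp of each other left 55 promoter groups. For H2AC18, H2AC19, H3C14, H3C15, H4C14 and H4C15, at least 80% of the window around the start recurs elsewhere on chromosome 1 at 99% identity or more. A missing peak at these 6 genes is therefore uncertain.

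The sequences under the E2F1 summits that the results turn on are shown on the strand of the gene, 40 bases on either side of the summit (25 downstream at H2AC17), with E2F words in capitals. An E2F word was TTGGCGC or TTCCCGC or TTGCCGC or TTCGCGC, on either strand. The first 3 are the summits of untreated cells. The next 4 lie in the first coding bases of H2A genes. The last 3 lie on the far side of the gene from its start, and the final one, shown on the plus strand, lies just outside the window of H2BC17.
H4C1, chr6:26021523-26021603: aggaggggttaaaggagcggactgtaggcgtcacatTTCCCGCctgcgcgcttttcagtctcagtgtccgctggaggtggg
H3C2, chr6:26032149-26032229: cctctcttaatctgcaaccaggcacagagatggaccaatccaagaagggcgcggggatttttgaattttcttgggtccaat
H2AC17, chr6:27893170-27893235: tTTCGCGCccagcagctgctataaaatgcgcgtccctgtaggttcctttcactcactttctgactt
H2AC12, chr6:27147115-27147195: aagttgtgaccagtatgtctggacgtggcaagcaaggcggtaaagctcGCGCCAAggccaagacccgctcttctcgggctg
H2AC13, chr6:27808182-27808262: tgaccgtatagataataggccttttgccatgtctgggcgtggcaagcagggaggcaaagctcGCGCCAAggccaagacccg
H2AC14, chr6:27814688-27814768: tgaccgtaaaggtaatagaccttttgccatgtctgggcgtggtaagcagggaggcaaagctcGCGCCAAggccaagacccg
H2AC15, chr6:27838274-27838354: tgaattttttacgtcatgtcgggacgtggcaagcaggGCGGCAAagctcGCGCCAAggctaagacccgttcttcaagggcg
H2BC11, chr6:27131964-27132044: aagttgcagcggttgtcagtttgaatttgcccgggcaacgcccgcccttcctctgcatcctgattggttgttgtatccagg
H2BC12, chr6:27146080-27146160: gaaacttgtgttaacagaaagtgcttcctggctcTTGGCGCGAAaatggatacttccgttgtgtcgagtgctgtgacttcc
H2BC17, chr6:27894511-27894591: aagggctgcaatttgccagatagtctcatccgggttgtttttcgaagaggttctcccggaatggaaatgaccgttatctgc

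Promoter sequence differed between the classes. In the window from 250 bases before the start to 50 after it, an E2F word was present in 13 of 15 H4 genes, 6 of 17 H2A, 6 of 18 H2B, 1 of 13 H3 and 0 of 6 H1 genes. Over all protein-coding genes the share was 17.1%. CCAAT was found on either strand in every H1, H2A, H2B and H3 gene but in only 5 of 15 H4 genes, against 36.0% of all genes. TATAAA was found in 46 of 69 members, against 9.73%. The octamer ATTTGCAT, a site for POU-domain factors, was present in 12 of 17 H2A and 14 of 18 H2B genes and in no H1, H3 or H4 gene, against 1.61%. GGTCCG, the core of the H4 promoter element, was present in 13 of 15 H4 genes, against 14.7%. In the first 150 bases of the gene itself, E2F words were found in 15 of 17 H2A, 11 of 15 H4, 8 of 13 H3, 2 of 18 H2B and 0 of 6 H1 genes, against 8.48% of all genes. That last window was chosen after the summit positions were seen. In the stretches printed above for H2AC12, H2AC13, H2AC14 and H2AC15, the word GCGCCAA lies a short distance past the start codon, within coding sequence. Words in coding sequence recur among genes that encode nearly the same protein and are not independent of each other.

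E2F1 peaks were counted at a gene when the summit lay within 1 kb of the start of any of its transcripts. The windows for H3K27me3 were set around the same starts. A gene with more annotated starts thus has more windows, and the number of starts was not matched between members and all genes. In untreated cells 5 of 69 members had one (7.25%, 95% interval 2.39 to 16.1), against 5.85% of all protein-coding genes. In DMSO 20 members did (29.0%, 18.7 to 41.2), against 33.5%. In GSK126 31 members did (44.9%, 32.9 to 57.4), against 51.5%. Each interval included the share over all genes, so the class as a whole did not stand apart from its background in E2F1 peaks. Intervals here and elsewhere are exact Clopper-Pearson intervals that cover counting error only, and they treat neighbouring genes as independent. Counting any overlap of a peak with the window gave 6 members without treatment, against 5.88% of all genes. It gave 27 in DMSO, against 34%, and 36 in GSK126, against 52.2%. With 1 start per gene, the canonical start itself lay inside a peak at 4.35% of members in untreated cells, against 2.95% of all genes. The shares were 21.7% against 22.8% in DMSO and 31.9% against 41.7% in GSK126. A summit only in the GSK126 list was found at 10 members, against 18.6%. The lists differ in depth. The fragment number expected over any base, solved from the deposited values, was 0.668 without treatment, 1.82 with DMSO and 1.70 with GSK126. Its part in the lower counts of untreated cells was not tested.

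**Figure D1:**
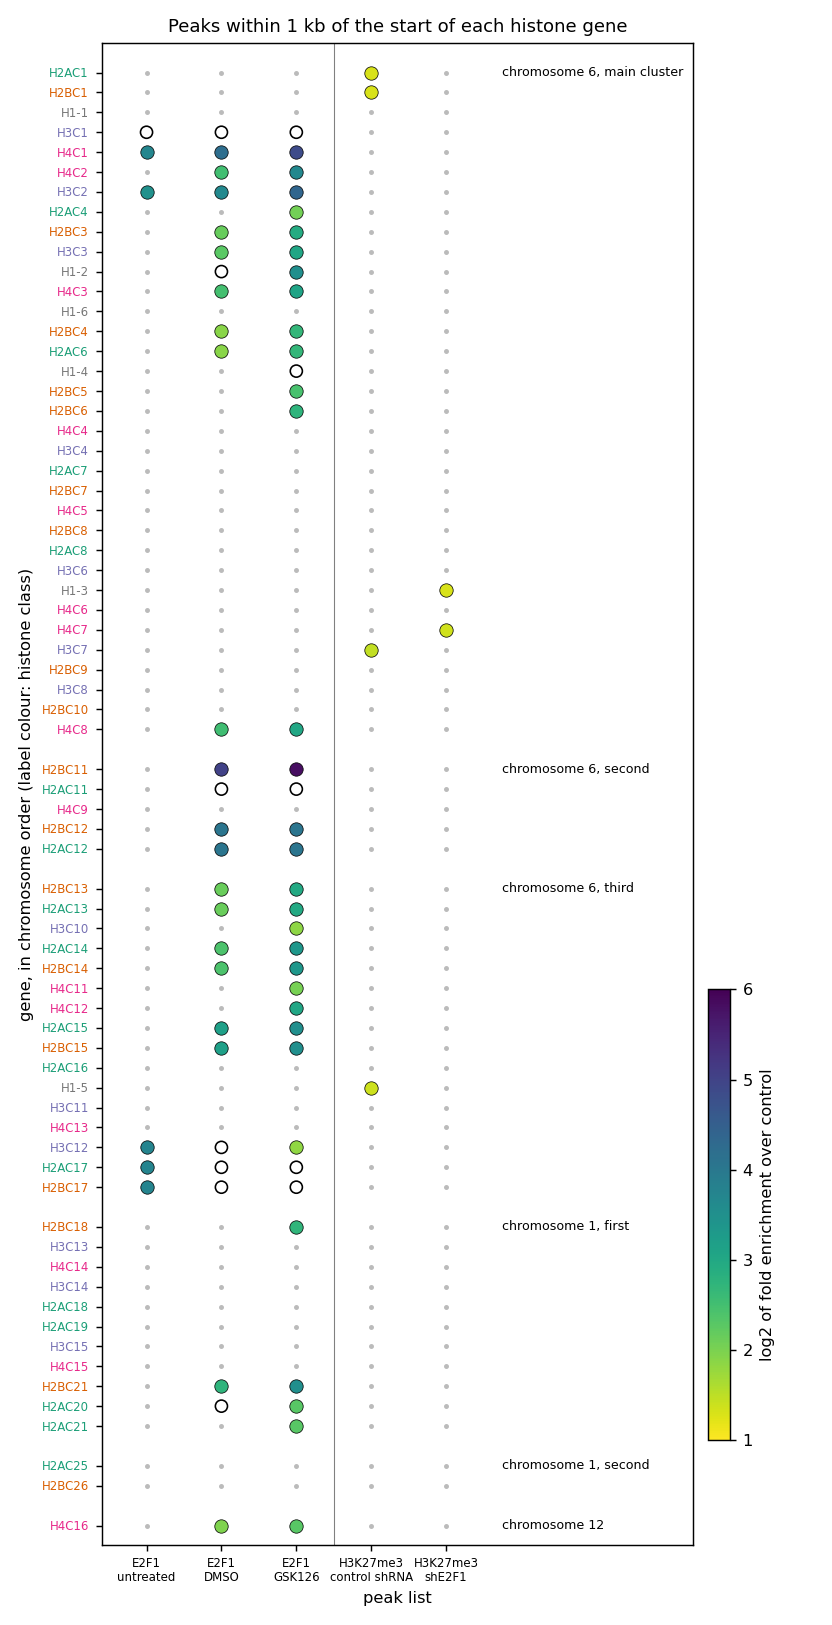
Peaks at each of the 69 members (rows, in chromosome order, label colour by class) in the 5 lists (columns). A filled circle marks a peak at the start, coloured by the log2 of its fold enrichment, an open circle an E2F1 peak that overlaps the window with its summit outside, and a dot no peak. A stretch of 15 neighbouring members from H4C4 to H2BC10 has no E2F1 symbol, and the H3K27me3 columns hold only 6 filled circles.

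By the 1-kb rule, H2B genes had E2F1 summits most often and H1 genes least often in DMSO and GSK126. No H2B summit lay within 100 bp of the canonical start, at 0 of 8 in DMSO and 0 of 11 in GSK126. For H2A genes 4 of 5 and 3 of 8 did, and for H4 genes 4 of 5 and 4 of 7. Some H2B summits lay in the paired H2A gene and others past the stem-loop, so the H2B counts do not show binding at the H2B starts themselves. In untreated cells the counts were 2 of 13 H3, 1 of 15 H4, 1 of 17 H2A, 1 of 18 H2B and 0 of 6 H1 genes, against 5.85% of all genes. A single shared peak gave the untreated H2A and H2B counts and that of H3C12, the last through an alternative start. The untreated counts therefore do not rank the classes. In GSK126 the counts were 11 of 18 H2B, 7 of 15 H4, 8 of 17 H2A, 4 of 13 H3 and 1 of 6 H1 genes. In DMSO they were 8, 5, 5, 2 and 0 in the same order. The classes hold few genes, and the intervals of all 5 overlapped in each of the 3 E2F1 lists. For H2B and H1 in GSK126 they ran from 35.7 to 82.7% and from 0.421 to 64.1%, and both included the 51.5% of all genes. By cluster, a GSK126 summit was present at 13 of 34 members of the main cluster, 3 of 5 of the second and 10 of 16 of the third. It was present at 4 of 11 members of the first chromosome 1 cluster, at 0 of 2 of the second and at H4C16.

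**Figure D2:**
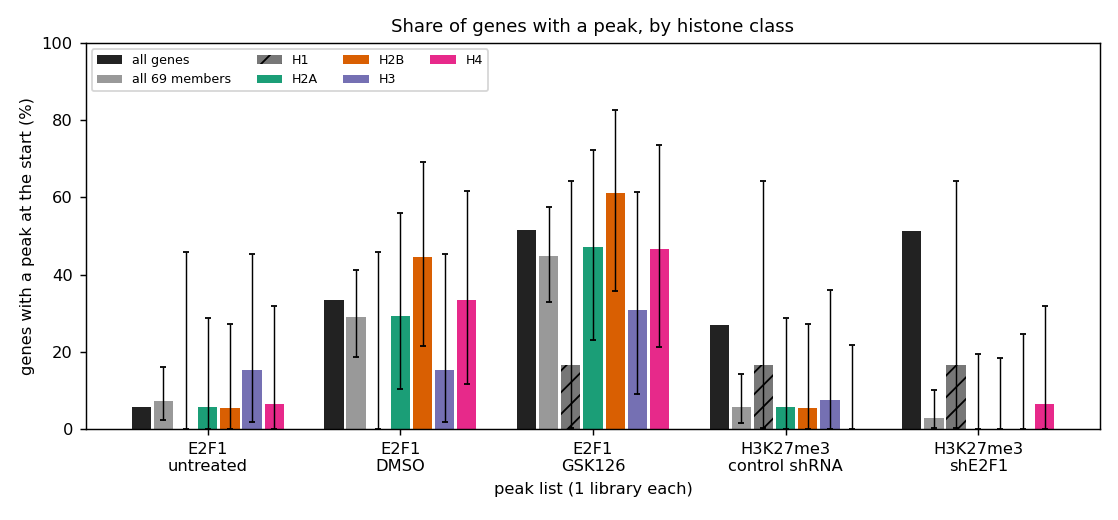
Share of genes with a peak at the start (vertical axis, percent) in each of the 5 lists, for all protein-coding genes, the 69 members and each histone class. Bars are shares and lines are 95% Clopper-Pearson intervals over genes. Members lie close to all genes in the E2F1 lists and far below them in the shE2F1 list of H3K27me3, at 2.90% against 51.2%.

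H4C1 and H3C2 were the only members with a summit in all 3 E2F1 lists. H4C1 encodes histone H4 and carries a TTCCCGC word at its summit. Its peak had a fold enrichment over the control of 13.1 without treatment, of 18.6 after DMSO and of 28.9 after GSK126. The summits held 53 fragments (95% Poisson interval 39.7 to 69.3), 138 (116 to 163) and 206 (179 to 236). They lay 86 to 90 bp before the start, at positions no more than 4 bp apart. H3C2 encodes histone H3 and had folds of 11.3, 12.6 and 20.6 in the same order, from 35, 81 and 125 fragments. The stretch printed for it holds CCAAT but no E2F word. In all 3 lists the peak at H4C1 also reached into the window of H3C1, the next H3 gene, from summits 1108 to 1112 bp away.

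The third untreated peak (chr6:27892966-27893317, fold 13.5, 29 fragments) was shared by H2AC17, H2BC17 and an alternative start of H3C12. Its summit lay 10 bp before the start of H2AC17. A second untreated peak stood 1126 bp past the start of H2BC17, between genes, at chr6:27894349-27894737. It had a fold of 32.3 from 73 fragments, higher than at any untreated summit inside a member's window. In DMSO and GSK126 a single wide peak covered both places, with folds of 19.6 and 36.0 and 203 and 348 fragments. Its summit was 1078 bp from H2BC17 in DMSO and 1081 bp in GSK126, just beyond the 1-kb limit. H2AC17 and H2BC17 therefore count as having a summit in untreated cells only, although peaks in all 3 lists overlapped their windows.

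The highest fold at any member was at H2BC11, an H2B gene paired with H2AC11. No untreated peak was listed there. The DMSO peak had a fold of 32.2 from 138 fragments and the GSK126 peak a fold of 56.0 from 227. The GSK126 peak (chr6:27131518-27133539) was 2022 bp wide and covered the starts of both genes of the pair. Its summit lay 791 bp past the start of H2BC11 and past its stem-loop, in an intron of a longer H2BC11 transcript. H2AC12 and H2BC12 shared a peak with folds of 16.6 in DMSO and 16.7 in GSK126. The summit was in the coding exon of H2AC12 in DMSO, whereas in GSK126 it lay 735 bp past the start of H2BC12, beyond its stem-loop. Both places hold an E2F word. The values of this pair thus compare different positions of one wide peak.

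The remaining H2A-H2B pairs with a summit in both lists were weaker. H2AC15 and H2BC15 had a fold of 9.04 in DMSO and 11.6 in GSK126. H2AC14 and H2BC14 had 5.34 and 10.2, H2AC13 and H2BC13 had 4.41 and 7.89, and H2AC6 and H2BC4 had 3.68 and 6.43. At 4 of the 5 H2A genes with a DMSO summit it lay 49 to 61 bp past the start, inside the coding exon. The exception was H2AC6, whose peak lay on the H2BC4 side. Among H4 genes, H4C2 had folds of 5.72 and 12.8, H4C3 of 5.67 and 8.51, H4C8 of 5.77 and 8.10, and H4C16 of 3.90 and 4.91. H3C3 had 4.85 and 8.24, H2BC3 had 4.49 and 7.73, and H2BC21 had 6.70 and 11.6. The median fold of members with a summit was 5.69 in DMSO and 8.10 in GSK126, against 6.03 and 7.78 over all genes.

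Of the linker histone genes, H1-2 alone had a summit, in the GSK126 list. Its fold was 11.6 from 55 fragments, at 1000 bp past the start, at the edge of the window. The DMSO summit of H1-2 lay 1005 bp away with a fold of 10.4, so the 2 lists differ there by the threshold and not by the presence of a peak. The folds of the other members with a summit in the GSK126 list alone were as follows. H4C12 had 8.18, close to the median of members, H2BC18 had 6.67, H2BC5 had 5.48, H2AC4 had 4.17, H4C11 had 4.06 and H3C10 had 3.59, from 17 to 33 fragments each. H2AC20 and H2AC21 shared a peak of 4.91. H3C12, which also had the untreated peak at its alternative start, had 3.56. H2BC6 had 6.68, but the GSK126 summit assigned to it lay at an alternative start, at −11703 bp from the canonical one.

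Summits lay past the stem-loop at 3 of 20 members in DMSO and 9 of 31 in GSK126. The 3 in DMSO were H2BC3, H2BC11 and H2BC21. In GSK126 H1-2, H2AC20, H2BC12, H4C11, H4C12 and H4C16 joined them. A summit more than 300 bp downstream of the nearest start was found at 15% of the members with a summit in DMSO and 25.8% in GSK126. Over all genes with a summit the shares were 8.61% and 7.66%. Members are short and closely spaced, so a summit past one gene can lie before another, as at H2AC20, whose summit is inside H2AC21. This count was made after the positions were seen.

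**Figure D3:**
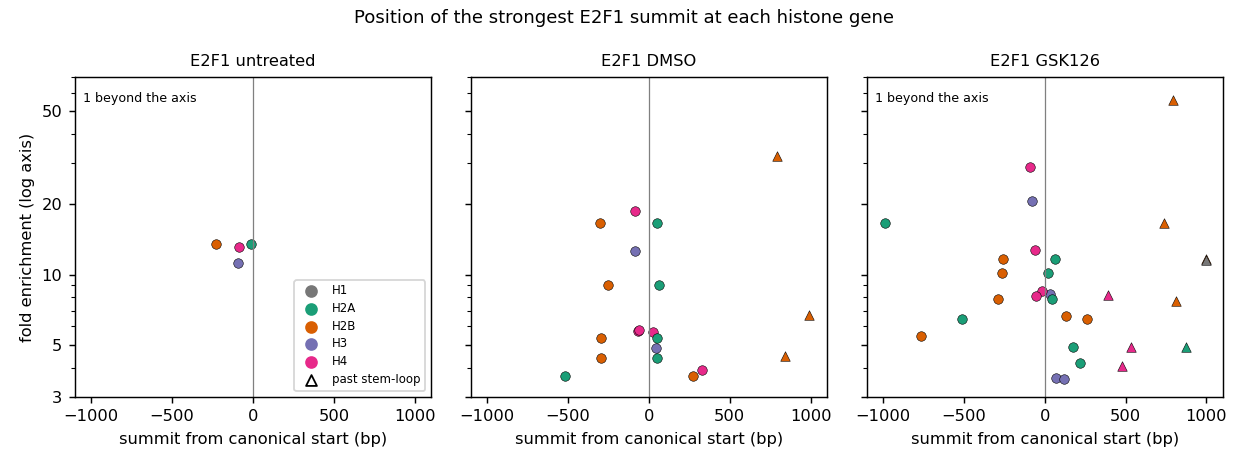
Fold enrichment (log axis) against the distance in bp of the strongest E2F1 summit from the canonical start of each member, positive downstream, in the 3 E2F1 lists. Circles are summits before the end of the stem-loop and triangles summits past it, coloured by histone class. Most H4 and H3 circles lie near the start, H2A circles in DMSO mostly 49 to 61 bp past it, and the highest point in DMSO and GSK126 is the H2BC11 triangle, at 795 and 791 bp.

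The E2F word was then searched for at the summits themselves. Within 100 bp of the summit a word was found at 2 of 3 distinct member peaks in untreated cells, 10 of 16 in DMSO (62.5%, 35.4 to 84.8) and 14 of 30 in GSK126 (46.7%, 28.3 to 65.7). The shares over peaks at all protein-coding promoters were 55.1, 35.8 and 30.9%. The intervals of DMSO and GSK126 included the value over all promoters. Over all genes, an E2F1 summit was more frequent where the promoter held a word, at 73.3% against 47.0% in GSK126. Among members the shares were 13 of 26 with a word and 18 of 43 without. H4 genes held the word most often. Of the 13 with a word 5 had a GSK126 summit, as did both H4 genes without a word, H4C8 and H4C16. H4C14 and H4C15 held a word but no summit, and a missing peak there is uncertain because of their near-identical copies. The H4C16 summit lay 534 bp past the start, outside the promoter window searched for words. These few genes give no basis for relating the word to the summit.

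Every member with a summit in both lists had a higher fold in GSK126 than in DMSO, 20 of 20, against 97.2% of all genes. The median log2 ratio was 0.77 (range 0.01 to 1.16), against 0.73 over all genes, close to each other. Fragments over the lowest background of each list gave 0.77 at members and 0.77 over all genes. The highest ratio was at H4C2 (1.16), whose fragments rose from 30 to 64, followed by the H2AC14-H2BC14 pair (0.93). The lowest were at the H2AC12-H2BC12 pair (0.01) and at H4C16 (0.33). The interval of the ratio of fragments included no change at H4C16 (0.742 to 2.79), H4C8 (0.939 to 2.18), H4C3 (0.970 to 2.39) and the H2AC15-H2BC15 pair (0.975 to 2.06).

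**Figure D4:**
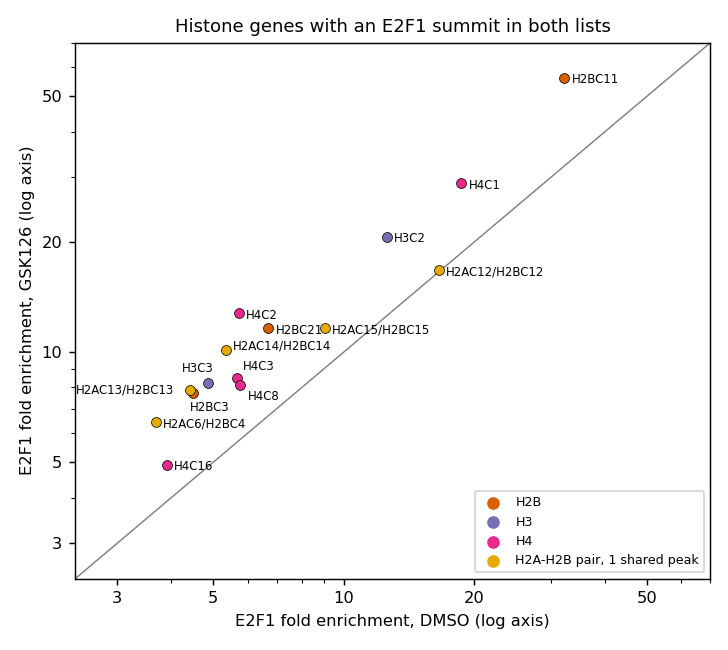
E2F1 fold enrichment in GSK126 (vertical) against DMSO (horizontal), both on log axes, at members with a summit in both lists. Each point is a gene or an H2A-H2B pair with 1 shared peak, and the line marks equal fold. All points lie above the line, with H2AC12/H2BC12 almost on it and H2BC11 highest in both lists.

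No E2F1 summit was found in any list at 36 members, against 47.7% of all genes, and no overlapping peak at 33, against 47.2%. The 33 comprised 4 H1 genes (H1-1, H1-3, H1-5 and H1-6), 7 H2A genes (H2AC1, H2AC7, H2AC8, H2AC16, H2AC18, H2AC19 and H2AC25) and 6 H2B genes (H2BC1, H2BC7, H2BC8, H2BC9, H2BC10 and H2BC26). They also comprised 8 H3 genes (H3C4, H3C6, H3C7, H3C8, H3C11, H3C13, H3C14 and H3C15) and 8 H4 genes (H4C4, H4C5, H4C6, H4C7, H4C9, H4C13, H4C14 and H4C15). H1-6, H2AC1 and H2BC1 are known for expression mainly in testis. Many of the others lay in runs. The longest was of 15 consecutive members from H4C4 to H2BC10, 83.8 kb of the main cluster (chr6:26189112-26272931), with 0 E2F1 peaks of any list between their starts. Over the genome there were 5.18 E2F1 peaks per Mb in DMSO and 4.71 in GSK126, so a stretch of this length often holds none. The main cluster as a whole held 23.1 and 33.8 per Mb. None of these 15 members has a near-identical copy. On chromosome 1, 7 consecutive members from H3C13 to H4C15 had none over 47.5 kb, and 6 of them have such a copy. H2AC16, H1-5, H3C11 and H4C13 formed a run of 4 on chromosome 6. The runs were noticed in the data, and no test was made of their length. A missing peak does not show that E2F1 was absent, only that no peak was called at this depth.

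H3K27me3 peaks were seldom called at the starts of the histone genes in either list. A broad peak overlapped the 1-kb window of 4 of 69 members in control shRNA (5.80%, 1.60 to 14.2), against 27.1% of all genes. In shE2F1 the count was 2 of 69 (2.90%, 0.353 to 10.1), against 51.2%. The upper bound of each interval lay below the share over all genes. Neither list had a peak at 63 members (91.3%), against 46.9% of all genes. Over all genes the count rose from 5412 in control shRNA to 10226 in shE2F1, while at members it went from 4 to 2. A peak only in shE2F1 was found at 26% of all genes and at 2 of 69 members. A peak only in control shRNA was found at 4 members, against 1.94%.

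The 6 members with an H3K27me3 peak in either list were all weak. H1-3 had a fold of 2.47 and H4C7 a fold of 2.58 in shE2F1 only. H2AC1 and H2BC1 shared a control peak with a fold of 2.48, H3C7 had 2.76 and H1-5 had 2.61, in control shRNA only. The −log10 q values of these peaks were 1.15 to 1.45, just above the broad cutoff. The median fold at all genes with a peak was 3.34 in control shRNA and 3.22 in shE2F1. At a −log10 q of at least 2, no member had a peak in either list, against 14.6% and 28.9% of all genes, and 0 of 69 allows a share of up to 4.35%, taken as 3 counts of the total. H1-3, H4C7 and H3C7 lay in the run of the main cluster without a listed E2F1 peak. That run held 3 H3K27me3 peaks in control shRNA and 6 in shE2F1. None of the 6 members with an H3K27me3 peak had an E2F1 peak overlapping its window. Neither did 33 of the 69 members as a whole, nor 47.2% of all genes. So few members give no basis for reading the peaks as exclusive of each other.

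The distance from each canonical start to the nearest H3K27me3 peak was also measured. The nearest shE2F1 H3K27me3 peak lay at a median of 39.1 kb from the start of a member, against 2.27 kb over all genes. In control shRNA the medians were 32.6 kb and 19.6 kb. A distance over 5 kb was found at 60 of 69 members in shE2F1 (87.0%), against 44.2% of all genes. The clusters of 5 and of 16 members on chromosome 6 and the larger chromosome 1 cluster held no shE2F1 peak at all, over 21.7, 86.4 and 105 kb. In control shRNA they held 0, 1 and 0 peaks. Over the genome there were 44.8 peaks per Mb in shE2F1 and 40.9 in control shRNA. No test was made of these counts, and the spans are short. The smaller chromosome 1 cluster, with H2AC25 and H2BC26, held 4 peaks in each list, covering 41.5% of it in control shRNA and 29.7% in shE2F1, but none within 1 kb of either start. The main cluster, which also spans SLC17 transporter genes, held 40 peaks in shE2F1, covering 7.46% of it against 5.90% of the genome. In control shRNA it held 43, covering 7.52% against 4.72%. Peaks of the mark were listed within that cluster but seldom at the starts of its histone genes.

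Over all genes, the H3K27me3 peaks of shE2F1 were more frequent where an E2F1 summit was listed. A shE2F1 peak was present at 62.4% of genes with a DMSO summit, 59.5% of genes with a GSK126 summit and 42.1% of genes without a summit in any list. Among histone genes the counts were 0 of 20, 0 of 31 and 2 of 36. By the rule of 3 counts of the total, a count of 0 allows shares of up to 15% and 9.68%, and the exact upper bounds are 16.8% and 11.2%. Histone genes with an E2F1 summit thus lay below the share of all genes with one. E2F1 and H3K27me3 come from different cells and libraries, and overlap of their peaks at a gene does not show that they share a molecule. As a check of the lists, H3K27me3 peaks were also present at the housekeeping gene ACTB in both, with folds of 3.36 and 3.59, and at GAPDH in shE2F1 (3.29). Of 4 HOX genes, developmental genes often held by Polycomb, HOXA9 had a peak in control shRNA only (fold 2.75), while no peak was listed at HOXB9, HOXC9 or HOXD9. How far a listed H3K27me3 peak at a promoter reflects the mark was not tested.

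Genes that make or handle the same proteins were compared with the replication-dependent genes. Of 12 replication-independent histone genes, which are expressed outside S phase too, 8 had an E2F1 summit in DMSO and 10 in GSK126, and 9 had an H3K27me3 peak in shE2F1. The E2F1 intervals of these 12 genes, 34.9 to 90.1% and 51.6 to 97.9%, began just above the shares over all genes and overlapped the intervals of the members. H2AX, whose product marks DNA breaks, had E2F1 folds of 16.2 without treatment, 38.6 in DMSO and 63.7 in GSK126. It had an H3K27me3 fold of 2.79 in shE2F1 only. H2AZ2, a variant H2A gene, had E2F1 folds of 11.5, 20.3 and 39.3 and an H3K27me3 fold of 3.44 in shE2F1 only. H3-3B, which encodes the replacement histone H3.3, had H3K27me3 in both lists, at folds of 3.26 and 4.29. H2AZ1 had E2F1 folds of 7.99, 19.0 and 30.6 and no H3K27me3 peak.

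Factors of histone gene transcription and 3′ processing had E2F1 summits more often than the genes they serve. Their interval in DMSO, 52.4 to 93.6%, lay above that of the members, 18.7 to 41.2%. Of 18 such genes 7 had a summit without treatment, 14 after DMSO and 16 after GSK126, against 5.85, 33.5 and 51.5% of all genes. H3K27me3 in shE2F1 was found at 7 of the 18 (17.3 to 64.3%), an interval that includes the 51.2% of all genes. SLBP, which binds the stem-loop, had E2F1 folds of 12.9, 35.0 and 67.1 and an H3K27me3 fold of 5.47 in shE2F1 only. NPAT had E2F1 folds of 6.30, 14.9 and 31.2 and no H3K27me3 peak, and CASP8AP2, a partner of NPAT, had 9.40, 19.2 and 29.4 and none either. HINFP had a summit in GSK126 alone (6.02). Of 10 genes of histone supply and assembly, 9 had a summit in DMSO and in GSK126, against 33.5 and 51.5% of all genes. In shE2F1 4 of the 10 had H3K27me3, with an interval of 12.2 to 73.8% that also includes 51.2%. NASP, a histone chaperone, had E2F1 folds of 9.38, 18.7 and 36.1, and CHAF1A, a subunit of the chaperone that places histones on new DNA, 21.5 in DMSO and 28.3 in GSK126. These lists were short and picked by role, and their intervals are wide, at 42.8 to 94.5% for H3K27me3 in shE2F1 at replication-independent histone genes. That interval does not overlap the one for replication-dependent genes, 0.353 to 10.1%, and it includes the 51.2% of all genes.

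**Figure D5:**
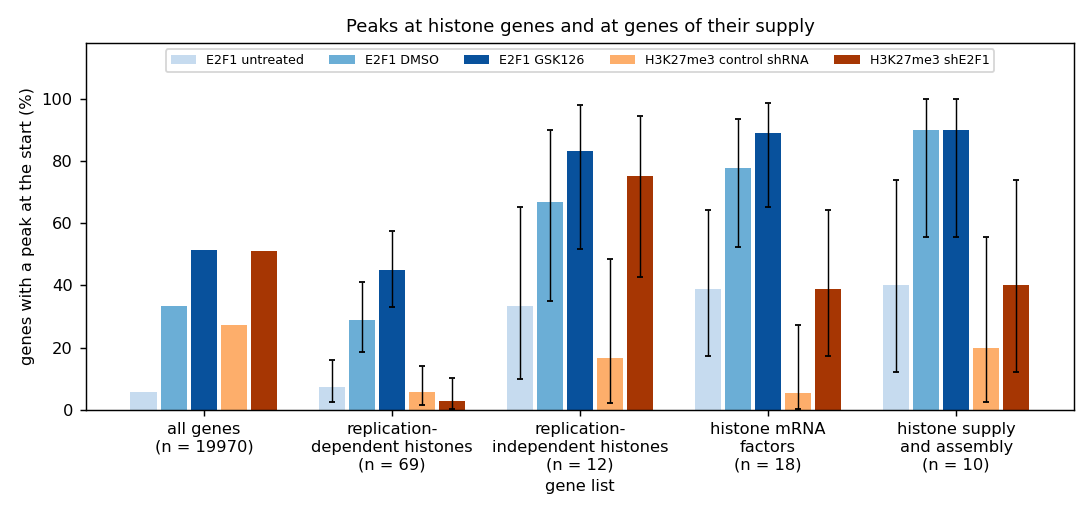
Share of genes with a peak at the start (vertical axis, percent) in each of the 5 lists, for all genes, the 69 replication-dependent histone genes and 3 lists of related genes with their number. Lines are 95% Clopper-Pearson intervals over genes. The dark orange bar of shE2F1 stands at 2.90% for the replication-dependent genes and at 75% for the replication-independent ones.

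The 9 other protein-coding genes that lie between members of a cluster were a local comparison. H3K27me3 overlapped the window of 4 of them in control shRNA and 3 in shE2F1, against 27.1 and 51.2% of all genes. An E2F1 summit was found at 1, BOLA1, with folds of 5.93 in DMSO and 10.6 in GSK126, against 33.5 and 51.5% of all genes with a summit. With 9 genes the shE2F1 interval ran from 7.49 to 70.1%, which overlaps that of the members.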

How the data were processed

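Per the study's methods and the submitters' processing notes, reads were quality-checked (FastQC 0.11.5), trimmed (cutadapt 4.5) and aligned to GRCh38 with Bowtie2 2.5.2, and peaks were called in each library with MACS2 2.2.9.1, narrow for E2F1 and broad for H3K27me3. Chromatin was sonicated for E2F1 and cut with micrococcal nuclease for H3K27me3. The 5 deposited lists give for each peak a fold enrichment, the ratio of signal to background. The authors' lists also hold −log10 p and −log10 q values and a score, which was not used. Input values were not used here. Genes came from GENCODE release 44, a later annotation of that build than the one used by the authors. Per gene, the peak with the highest fold was taken.

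A narrow peak's fold and −log10 p were solved for the whole number of fragments and the background at the summit, within a relative error of 2e-05, in every narrow peak. The solver and the promoter rule were tested on simulated data. Sequences were read from hg38 with pysam 0.24.0, and copies were sought with minimap2. Named members were those with the highest folds, the extreme ratios, no E2F1 peak, any H3K27me3 peak, or the most or fewest E2F1 lists in a class. The other members with E2F1 peaks were named after their values were seen. Members and lists were chosen with earlier results of these data known. With 1 library per group no test between conditions was run.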

Additional observations from a re-analysis of the deposited data

How the results depend on the processing

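The shares of members with a peak, the median ratio and the shares with an E2F word, 10 values in all, were recomputed under 55 alternatives. Of the results, 48 stayed within the 95% interval of the reported value. A share has no direction that could change, so direction could be checked only for the median log2 ratio. That ratio stayed positive in each of its alternatives. Widening the window to 2000 bp raised the DMSO share of E2F1 at members to 42.0%. The share over all genes was not computed at that width, so 42.0% cannot be set against the 1-kb background. Requiring a −log10 q of at least 2 or of at least 5 set the H3K27me3 shares in control shRNA and in shE2F1, and the share with a peak only in shE2F1, to 0%, because all of these member peaks are weaker than that. Shares of E2F1 at members ranged over the alternatives from 5.45 to 10.1% in untreated cells, from 24.6 to 42.0% in DMSO and from 36.2 to 53.6% in GSK126. Among these E2F1 alternatives, the share over all genes was computed only for any overlap with the window. Leaving out members with a near-identical copy gave 49.2% in GSK126 and 3.17% for H3K27me3 in shE2F1. Counting promoter groups gave 45.5% and 3.64%. The median log2 ratio of GSK126 to DMSO ranged from 0.76 to 0.77. No paired analysis was possible because each group has 1 library, and no library could be left out for the same reason. The untreated list rests on 3 distinct member peaks. The depth of the H3K27me3 libraries is unknown, and a missing broad peak cannot be told apart from signal under the cutoff.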
